A study of Homo sapiens with 7 samples.

Results

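TRIM28 sites that carried SPT5 but no RNA polymerase II (Pol II) were examined in BJAB, a human B-cell line that is established in culture and came from a Burkitt's lymphoma. Chromatin immunoprecipitation with sequencing (ChIP-seq) gave 1 library and 1 peak list for each of 5 targets: TRIM28, SPT5, Pol II (antibody 8WG16), O-GlcNAcase (OGA, antibody NCOAT) and the O-GlcNAc sugar itself (antibody RL2). The labels give no treatment or genotype, list the passage as multiple, and name no replicates. The sites, called Pol II-free shared sites here, were the TRIM28 peaks on chromosomes 1 to 22 that a SPT5 peak overlapped by at least 1 bp and that no Pol II, OGA or O-GlcNAc peak overlapped. This left 6008 of 43998 TRIM28 peaks. The libraries of mouse and rabbit IgG were not analysed here.

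TRIM28 (KAP1, TIF1b) is a large nuclear co-repressor. KRAB zinc finger proteins tether it to DNA, often at transposable elements, where it gathers histone deacetylases and the methyltransferase SETDB1, and it has also been linked to the pausing of Pol II near promoters. SPT5 forms DSIF with SPT4, binds the clamp of transcribing Pol II, takes part in pausing together with NELF, and, once phosphorylated by P-TEFb, stays with the polymerase during elongation.

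All members were chosen from the same 5 lists that describe them, and each target had 1 library. The values below are therefore descriptions: no difference between classes of peaks was tested, and intervals (95%, Wilson for shares and order statistics for medians) cover counting error over peaks only. Neither reads nor library depths were analysed, so depth is unknown, and a site without a Pol II peak is a site where none passed the authors' threshold.

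The Pol II-free shared sites made up 13.7% of TRIM28 peaks (interval 13.3% to 14.0%) and 31.1% of the 19328 TRIM28 peaks with SPT5. Most TRIM28 peaks with SPT5 and without Pol II qualified, 6008 of 6860 or 87.6%, and the other 12.4% carried OGA, O-GlcNAc or both. For comparison, 12468 TRIM28 peaks carried SPT5 and Pol II, 574 carried SPT5 and OGA without Pol II or O-GlcNAc, and 23860 overlapped no other list. With every list held to a −log10 q of 5 or more, 3260 Pol II-free shared sites were left. With that threshold for TRIM28 and SPT5 only and absence judged on the whole other lists, 2825 were left.

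In height, the TRIM28 signal at Pol II-free shared sites lay somewhat below the middle of the list. The fold enrichment, the authors' ratio of a peak to their background, had a median of 3.09 (interval 3.06 to 3.12), with 5% of sites under 2.12 and 5% over 5.27. TRIM28 peaks with SPT5 and OGA had a median of 3.94, those with SPT5 and Pol II 2.95, and TRIM28-only peaks 4.04. The share of Pol II-free shared sites was 20.3% in the lowest decile of TRIM28 fold enrichment (up to 2.42), 13.8% in the sixth decile and 3.07% in the highest (from 6.48). Only 135 of the 6008 sites stood in that highest decile.

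**Figure D1:**
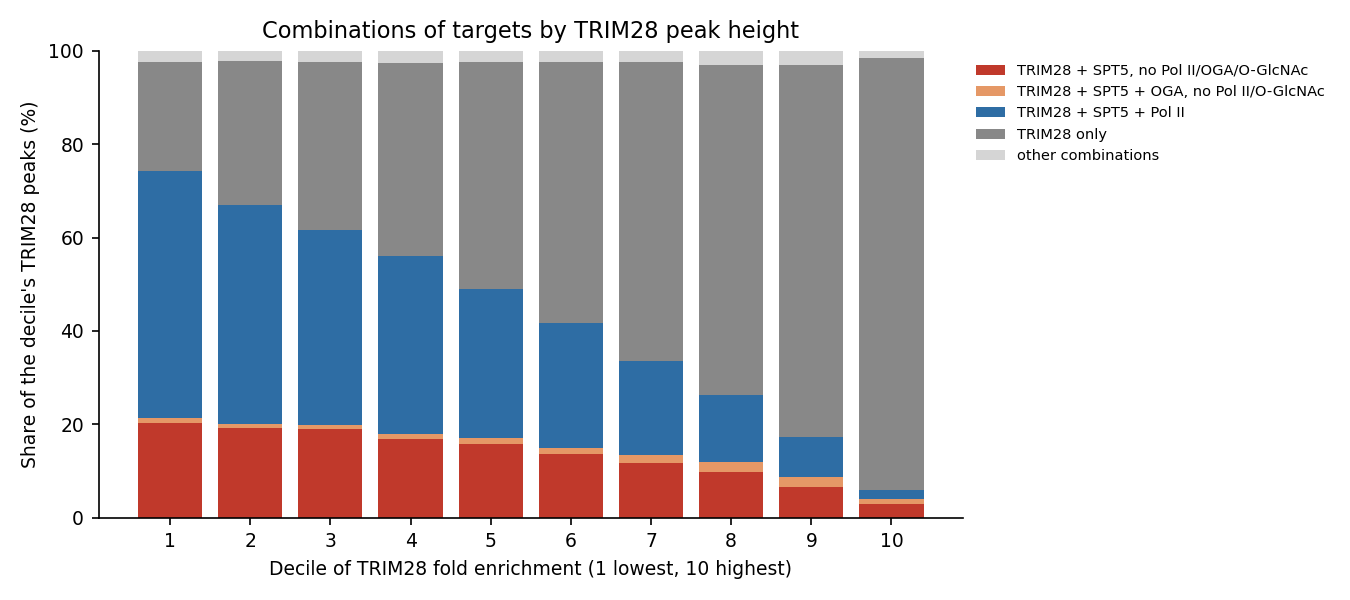
Share of TRIM28 peaks in each combination of targets (vertical axis, %) by decile of TRIM28 fold enrichment (horizontal axis, lowest to highest). The Pol II-free shared sites (red) take 20.3% of the lowest decile and 3.07% of the highest, while TRIM28-only peaks (grey) take most of the highest decile.

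At many of the sites the TRIM28 peak, the SPT5 peak or both had a −log10 q under 5. For TRIM28 its median over the sites was 6.09 and its lowest value 1.31. The TRIM28 peak had a −log10 q of at least 5 at 62.6% of Pol II-free shared sites, against 92.2% with OGA, 69.8% with Pol II and 69.7% of TRIM28-only peaks. The SPT5 peak had such a value at 74.4% of Pol II-free shared sites, against 76.0% with OGA and 98.9% with Pol II. Both peaks did so at 2814 Pol II-free shared sites (46.8%).

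The widths of the TRIM28 peaks were narrow. Their median was 303 bp (300 to 306 bp), from 189 bp to 1613 bp, against 436.5 bp with OGA, 374 bp with Pol II and 279 bp for TRIM28-only peaks. A width over 500 bp was found at 10.3% of Pol II-free shared sites, against 35.9% with OGA, 27.3% with Pol II and 5.50% of TRIM28-only peaks. Thus by width the Pol II-free shared sites stood between TRIM28-only peaks and peaks with Pol II, and by TRIM28 fold enrichment they stood close to the peaks with Pol II.

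The SPT5 peaks over these sites were weak and short beside those with Pol II. Taking at each site the SPT5 peak that shared most bases, the median SPT5 fold enrichment was 3.10 (3.07 to 3.13), against 2.83 with OGA and 8.21 with Pol II. The median SPT5 width was 417.5 bp (410 to 426 bp), against 441 bp with OGA and 1057 bp with Pol II. SPT5 peaks over 1 kb wide covered 17.1% of Pol II-free shared sites and 53.1% of the sites with Pol II.

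**Figure D2:**
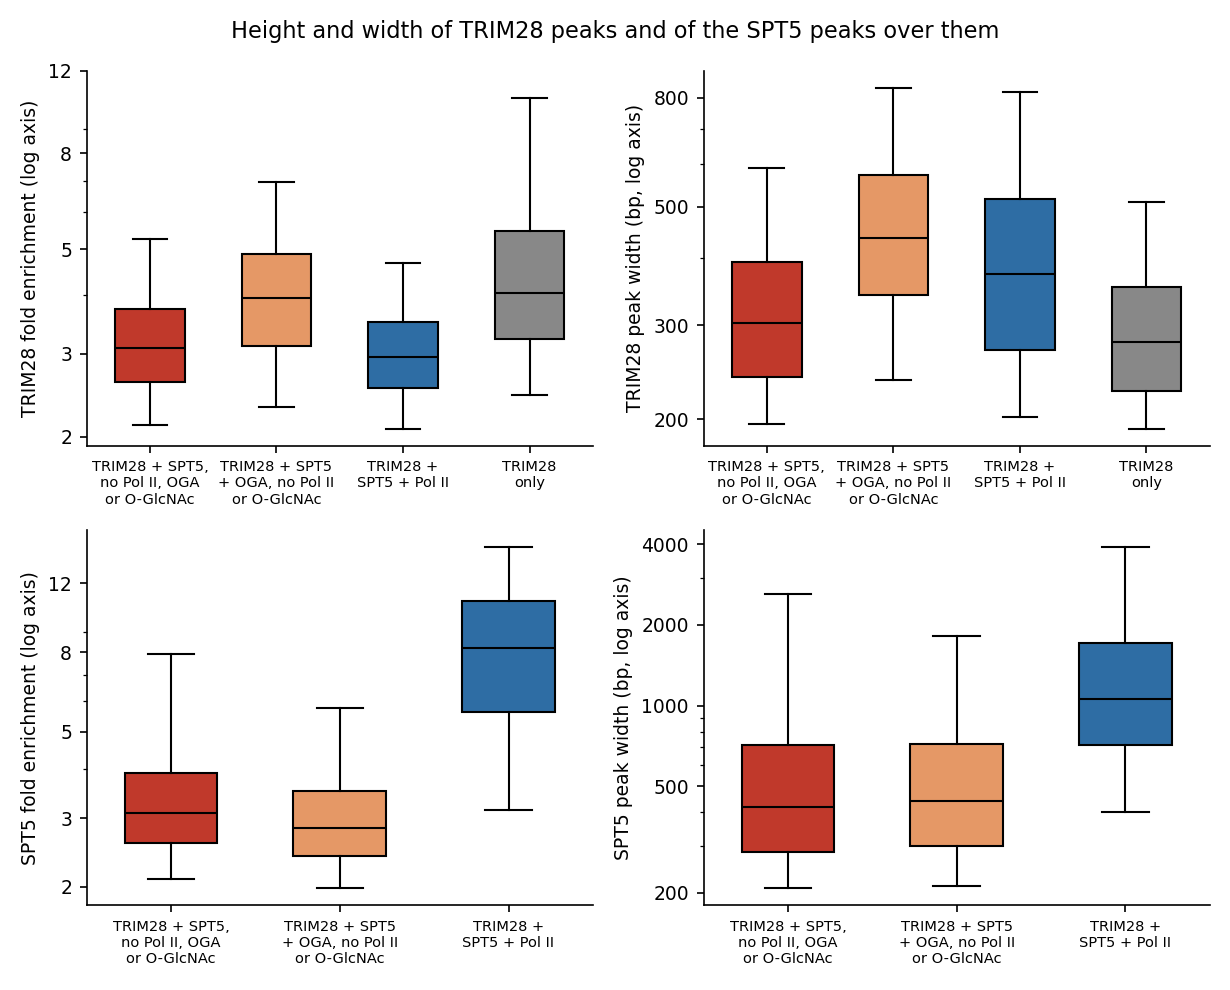
Fold enrichment and width (vertical axes, log scale) of TRIM28 peaks, above, and of the SPT5 peaks over them, below, by combination of targets. Lines in the boxes are medians, boxes span the 25th to the 75th percentile and whiskers the 5th to the 95th; the Pol II-free shared sites have a median SPT5 fold enrichment of 3.10 and the sites with Pol II one of 8.21.

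Seen from the SPT5 list, the partners of Pol II-free shared sites were close to SPT5 peaks that overlapped no other list in median height and distance. The 5273 SPT5 peaks at the sites that touched no Pol II, OGA or O-GlcNAc peak had a median fold enrichment of 2.96 (2.935 to 2.996). The 32479 SPT5 peaks without any other target had 3.01 (2.998 to 3.02), so these intervals lay just apart. The median distance of the 5273 peaks to Pol II was 11188 bp (10558 to 11954 bp). For the 32479 it was 11212 bp (10956 to 11467 bp), and these intervals overlapped. The 95th percentiles of distance were 195776 bp and 102011 bp, in the same order. The 5273 peaks were somewhat wider, with medians of 373 bp (366 to 382 bp) and 316 bp (313 to 318 bp). Heights of TRIM28 and SPT5 did not move together across the sites: Spearman's rho was -0.0039 over 6008 sites, which share the same pair of libraries.

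How the peaks lay on each other was looked at next. A TRIM28 peak lay wholly inside its SPT5 peak at 41.8% of Pol II-free shared sites, against 32.4% with OGA and 83.3% with Pol II. The SPT5 peak lay wholly inside the TRIM28 peak at 10.9%, 24.6% and 1.29% of these classes, in the same order, and the remaining sites overlapped in part. The TRIM28 summit fell inside the SPT5 peak at 87.8% of Pol II-free shared sites. The median distance to the nearest SPT5 summit was 88 bp (85 to 91 bp), against 66 bp with OGA and 130 bp with Pol II, and 32.2% of summits were within 50 bp of each other, against 39.9% and 25.0%. SPT5 peaks were widest in the class with Pol II, and width limits how far summits of overlapping peaks can lie apart.

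Sites just inside and just outside the rule show how it divides the list. The shortest overlaps with SPT5, of 1, 2 and 3 bases, were at chromosome 1, 201451058 to 201451331, at chromosome 9, 33827330 to 33827658, and at chromosome 5, 118749722 to 118750090 (hg19, as all positions here), with TRIM28 fold enrichments of 3.19, 3.73 and 3.30. TRIM28-only peaks at chromosome 12, 123322642 to 123322834 (fold enrichment 2.39), at chromosome 6, 73358658 to 73359040 (3.63), and at chromosome 15, 40626054 to 40626250 (3.27), missed SPT5 with 0, 1 and 1 bases between the peaks. Few peaks were so placed: 38 sites shared 20 bases or fewer with SPT5, and 29 TRIM28-only peaks had 20 bases or fewer between them and SPT5. On the side of Pol II, 153 sites had a Pol II peak within 100 bp, and 335 TRIM28 peaks with SPT5 shared 100 bases or fewer with Pol II and were left out.

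No Pol II peak overlapped the sites, but one was often not far away. The median distance from a Pol II-free shared site to the edge of the nearest Pol II peak was 8595 bp (8127 to 9202 bp), against 19915 bp (16504 to 24261 bp) for the sites with OGA and 46200 bp (44929 to 47533 bp) for TRIM28-only peaks. Pol II lay within 1 kb of 19.0% of the sites, against 10.3% with OGA and 2.57% of TRIM28-only peaks, and within 5 kb of 39.7% (38.5% to 40.9%), against 25.6% and 11.5%. At the other end, 1034 Pol II-free shared sites (17.2%) were over 50 kb from any Pol II peak, against 28.2% with OGA and 48.3% of TRIM28-only peaks. If no Pol II, OGA or O-GlcNAc peak is allowed within 1 kb, the rule itself raises the median distance to 13774 bp and lowers the share within 5 kb to 25.4%.

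**Figure D3:**
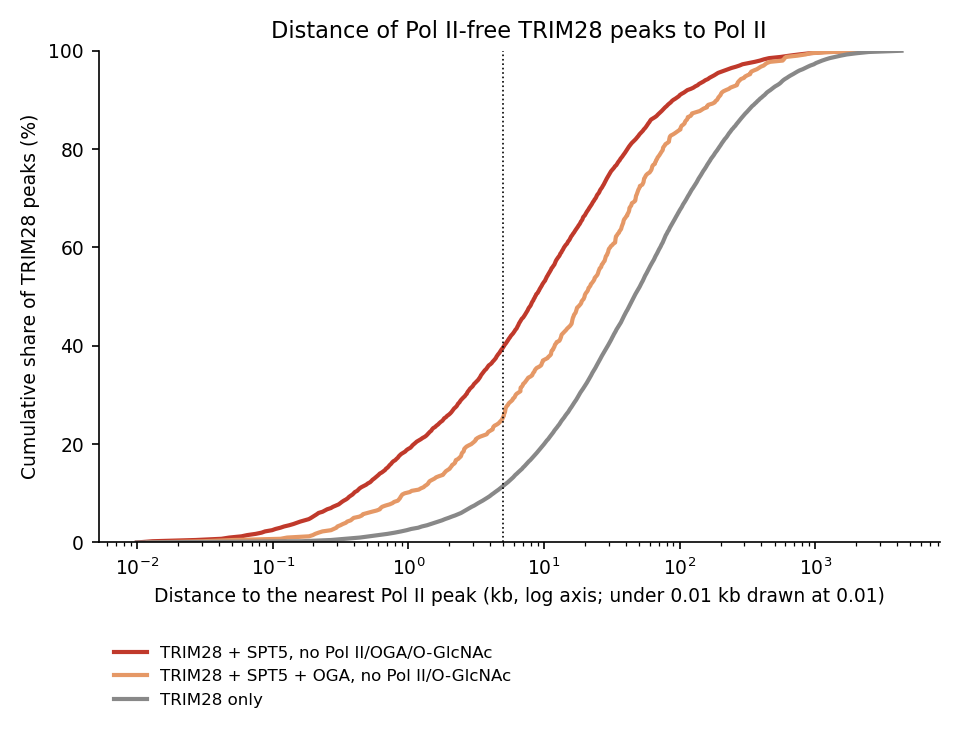
Cumulative share of TRIM28 peaks (vertical axis, %) by distance to the nearest Pol II peak (horizontal axis, kb, log scale) for 3 classes without Pol II; the dotted line marks 5 kb. At 5 kb the curves stand at 39.7% for Pol II-free shared sites, 25.6% for sites with OGA and 11.5% for TRIM28-only peaks.

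Distances were also set side by side within each decile of TRIM28 fold enrichment, so that peaks of like height were compared. In the lowest decile the median distance was 5889.5 bp (4600 to 7256 bp) for 894 Pol II-free shared sites, against 23815 bp (20784 to 27690 bp) for 1025 TRIM28-only peaks. In the fifth decile it was 10153 bp for 698 Pol II-free shared sites, against 36539 bp for 2140 TRIM28-only peaks. The highest decile had 16236 bp (11280 to 25446 bp) for 135 Pol II-free shared sites and 55999 bp (53420 to 60387 bp) for 4062 TRIM28-only peaks, with median TRIM28 fold enrichments of 7.97 and 8.63. The median was lower for Pol II-free shared sites in each of the 10 deciles. The intervals did not overlap in any decile, but they cover counting error over peaks only and are no test of the classes. By the rule, TRIM28-only peaks also lack SPT5. Among SPT5 peaks without any other target the median distance to Pol II was 11212 bp. Among SPT5 peaks at the sites that touched no Pol II, OGA or O-GlcNAc peak it was 11188 bp. Whether the difference between the classes goes with SPT5 alone was not tested. The OGA and O-GlcNAc lists also lay closer to Pol II-free shared sites than to TRIM28-only peaks. Median distances to OGA peaks were 112207 bp for Pol II-free shared sites and 277899 bp for TRIM28-only peaks. Median distances to O-GlcNAc peaks were 47532 bp and 97252.5 bp, in the same order.

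The 2384 sites within 5 kb of Pol II were nearest to 2033 different Pol II peaks. These had a median Pol II fold enrichment of 4.12 (3.98 to 4.26), against 4.99 (4.93 to 5.04) for the other 17303 Pol II peaks, and median widths of 476 bp and 510 bp. SPT5 was present at 97.9% of them, against 95.2% of the other Pol II peaks, and TRIM28 at 67.2%, against 59.7%. O-GlcNAc was present at 24.9% of them (23.1% to 26.8%), against 42.2% (41.5% to 42.9%), while OGA was present at 9.0%, against 5.77%. The rule itself bears on these last shares, since it left out 852 TRIM28 peaks with SPT5 and without Pol II because OGA or O-GlcNAc overlapped them, so nothing is read from them here.

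Both the SPT5 and the TRIM28 values of the sites differed by distance to Pol II. At 1144 sites up to 1 kb from Pol II the median SPT5 fold enrichment was 3.90 and the median SPT5 width 824.5 bp. At the 1240 sites from 1 to 5 kb these were 3.10 and 452.5 bp, at the 2590 sites from 5 to 50 kb 3.01 and 390.5 bp, and at the 1034 sites over 50 kb away 2.94 and 334.5 bp. The TRIM28 fold enrichments went the other way, with medians of 2.83, 3.04, 3.16 and 3.29 from the nearest to the farthest band. Median TRIM28 widths were 290, 303, 305 and 309 bp. Beyond 1 kb the intervals of TRIM28 width overlapped (295 to 310, 300 to 311 and 302 to 319 bp). So did those of SPT5 fold enrichment (3.02 to 3.15, 2.96 to 3.04 and 2.88 to 3.03). The intervals of TRIM28 fold enrichment and SPT5 width did not overlap between bands. The summits of TRIM28 and SPT5 were a median of 252 bp apart up to 1 kb from Pol II, 91 bp from 1 to 5 kb, 75 bp from 5 to 50 kb and 69 bp beyond. Across all sites, Spearman's rho of the distance to Pol II was 0.17 with TRIM28 fold enrichment and -0.23 with SPT5 fold enrichment, over 6008 sites of the same libraries.

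One part of the sites lay on the shoulder of a SPT5 domain that also covered Pol II. At 667 Pol II-free shared sites (11.1%, 10.3% to 11.9%) a SPT5 peak over the site overlapped a Pol II peak elsewhere along its length. This was so at 592 of the 1144 sites up to 1 kb from Pol II (51.7%), at 69 of the 1240 from 1 to 5 kb (5.56%) and at 6 of the 2590 from 5 to 50 kb. Beyond 50 kb there could be none, since the widest SPT5 peak over any site was 27057 bp. At the 667 sites, the SPT5 peak that shared most bases had a median fold enrichment of 7.01 and a median width of 1820 bp. It was not always the one that reached Pol II. These values were 2.99 and 383 bp at the 5341 sites whose SPT5 peak did not reach Pol II. The TRIM28 peaks of the 667 sites were lower than those of the 5341, with medians of 2.75 and 3.13, and slightly narrower, with medians of 284 bp and 305 bp. The nearest SPT5 summit lay a median of 680 bp from the TRIM28 summit at the 667 sites, against 76 bp where the SPT5 peak did not reach Pol II.

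The side on which SPT5 was strongest also differed between these groups. Among sites up to 1 kb from Pol II whose SPT5 peak reached Pol II, the SPT5 summit lay on the Pol II side of the TRIM28 summit at 530 of 591 sites (89.7%, 87.0% to 91.9%), with a median offset of 645.5 bp towards Pol II. Where the SPT5 peak did not reach Pol II, it lay on that side at 286 of 550 sites (52.0%, 47.8% to 56.1%), with a median offset of 5 bp. A SPT5 peak that reaches Pol II has to extend towards it, so that the first share is set in part by how these sites were divided. From 5 to 50 kb and beyond 50 kb the shares on the Pol II side, over all sites, were 50.9% and 49.4%.

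**Figure D4:**
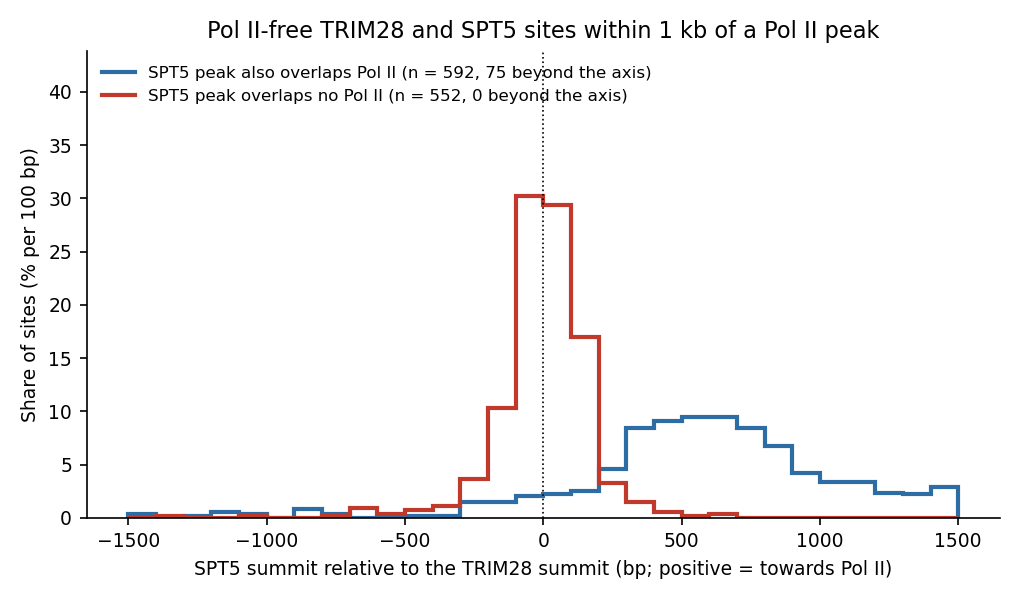
Position of the SPT5 summit relative to the TRIM28 summit (horizontal axis, bp, positive towards Pol II) at Pol II-free shared sites within 1 kb of Pol II, as the share of sites per 100 bp (vertical axis). Where the SPT5 peak also overlaps Pol II (blue, 592 sites) the summits spread towards Pol II, and where it does not (red, 552 sites) they centre near 0.

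Individual sites show both ends of the range. The highest TRIM28 peak among the sites lay at chromosome 8, 37716694 to 37717226, with a fold enrichment of 24.3 (rank 46 of the whole TRIM28 list). Its SPT5 peak had a fold enrichment of 5.37, the summits were 5 bp apart, and the nearest Pol II peak was 9202 bp away. Next came the site at chromosome 1, 93708746 to 93709244, with a TRIM28 fold enrichment of 18.5, and that at chromosome 11, 102302618 to 102303941, with 18.3. The site at chromosome 16, 64211749 to 64212638, had 18.1, and that at chromosome 7, 64868904 to 64869339, had 17.9. At these 4 sites the SPT5 fold enrichment was 2.45, 2.52, 2.59 and 2.62, and Pol II was 61368, 18520, 46245 and 29834 bp away. High TRIM28 thus stood over SPT5 peaks that were below the median of the sites at these 4 of the 5 highest.

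The sites under the highest SPT5 peaks were of the other kind. The first, at chromosome 19, 2272708 to 2273025, lay under a SPT5 peak of 5680 bp with a fold enrichment of 20.1. The second, at chromosome 8, 95271409 to 95271639, lay under one of 9431 bp (SPT5 fold enrichment 19.3), and the third, at chromosome 17, 81040145 to 81040711, under one of 6126 bp (19.3). All 3 SPT5 peaks reached Pol II. Their TRIM28 fold enrichments were 3.00, 2.32 and 3.16. The TRIM28 and SPT5 summits were 2277, 2987 and 2941 bp apart there.

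The widest TRIM28 peak, of 1613 bp, lay at chromosome 5, 180614499 to 180616111, with a TRIM28 fold enrichment of 4.13. It was followed on chromosome 7 by peaks of 1567 bp at 105700852 to 105702418 (TRIM28 fold enrichment 4.70) and of 1344 bp at 157725608 to 157726951 (10.3). Pol II was 1362, 1104 and 595501 bp away from these sites. Farthest from Pol II was the site at chromosome 2, 51240112 to 51240498, at 2571856 bp. The next farthest were chromosome 4, 181453838 to 181454026, at 2384340 bp, and chromosome 2, 51046189 to 51046411, at 2377933 bp. These 3 had TRIM28 fold enrichments of 4.99, 3.87 and 3.47 and SPT5 fold enrichments of 2.24, 4.31 and 2.84. The nearest sites touched a Pol II peak end to end, with 0 bases between. They were on chromosome 3 at 15900431 to 15900627, on chromosome 11 at 10315163 to 10315458, and on chromosome 22 at 50987477 to 50987665. At each of these 3 the SPT5 peak reached Pol II.

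The sites were unevenly spread along the genome. Their share of a chromosome's TRIM28 peaks was highest on chromosome 20 (17.0%, 15.2% to 18.9%), 17 (16.9%, 15.5% to 18.4%) and 16 (15.8%, 14.2% to 17.5%). It was lowest on chromosome 13 (10.8%, 8.86% to 13.0%), 4 (10.9%, 9.56% to 12.3%) and 6 (11.4%, 10.2% to 12.7%). The median distance to the nearest other TRIM28 peak was 2498 bp (2358 to 2686 bp), against 2971.5 bp for sites with Pol II and 10775 bp for TRIM28-only peaks. This neighbour was another Pol II-free shared site in 26.6% of cases (25.5% to 27.7%), although these make up 13.7% of the list. It carried Pol II and SPT5 in 33.2% (28.3% of the list) and was a TRIM28-only peak in 35.9% (54.2% of the list). Sites with OGA had a Pol II-free shared site as neighbour about as often, in 25.4% of cases. The other classes also had neighbours of their own kind more often than their part of the list, at 51.3% for sites with Pol II (28.3% of the list) and 66.0% for TRIM28-only peaks (54.2%).

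Runs were formed by joining sites with at most 10 kb between them. Of the 6008 sites, 2319 (38.6%, 37.4% to 39.8%) had another within 10 kb, and 3689 stood alone. The median distance to the nearest peak of the same class was 19798 bp for Pol II-free shared sites, against 11688.5 bp for the more numerous sites with Pol II and 19011.5 bp for the still more numerous TRIM28-only peaks. There were 621 runs of 2 sites, 167 of 3 and 112 of 4 or more. The 55 runs of 5 or more held 348 sites (5.79%). With a −log10 q of at least 5 for TRIM28 and SPT5 the share with a neighbour was 25.2%, with fewer sites by construction.

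Sites in runs of 5 or more lay closer to Pol II than single sites and under broader SPT5 peaks. Their median SPT5 width was 637 bp (572 to 720 bp), against 378 bp (367 to 389 bp) for single sites, and their SPT5 fold enrichments had medians of 3.13 and 3.09. Median TRIM28 fold enrichments were 3.02 and 3.12, and median TRIM28 widths 320 and 299 bp. Pol II was a median of 5165 bp from sites in runs, against 12230 bp from single sites, and none of the 348 sites in runs was farther than 49058 bp from it. SPT5 widths were counted once per site, so a SPT5 peak over several sites counted several times. Among all SPT5 peaks, 145 held 2 sites and 17 held 3 or more. Such a peak tends to place its sites in the same run, so the difference in width is set in part by how runs were formed. The intervals take sites of the same run as separate. Chromosome 20 had 7 of the 55 runs, and chromosomes 17 and 7 had 6 each. Of the 55 runs, 20 held no Pol II peak between their ends, 11 held 1 and 24 held 2 or more. A TRIM28-only peak lay inside 25 of them, an OGA peak inside 18 and an O-GlcNAc peak inside 6. SPT5 peaks covered a median of 46.3% of the length of these runs (6.66% to 96.9%). Runs are made of sites that SPT5 overlaps, which by itself raises this share, and no cover outside runs is given here. The part of SPT5 cover in the runs was not tested.

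The longest run held 18 sites over 50.2 kb at chromosome 5, 14197192 to 14247347. At these sites TRIM28 fold enrichments ranged from 2.57 to 4.78 and those of the SPT5 peaks over them from 2.39 to 4.39. No SPT5 peak over a site reached Pol II. Some other peaks between the ends of the run were higher, up to 9.71 for TRIM28 and 7.49 for SPT5. Between its ends lay 33 TRIM28, 30 SPT5, 8 OGA, 3 Pol II and 0 O-GlcNAc peaks, and 8 of the TRIM28 peaks overlapped no other list. The 3 Pol II peaks were low and short, with fold enrichments of 3.39, 2.64 and 3.19 and widths of 213, 228 and 260 bp. The highest TRIM28 peak among the 18 sites of the run, at 14211978 to 14212852, was 875 bp wide with a fold enrichment of 4.78. When sites with up to 20 kb between them were joined, this run grew to 29 sites over 96.7 kb (14168266 to 14264976) and still held the most sites, while runs on chromosome 7 (22 sites over 120.2 kb) and chromosome 20 (16 sites over 108.8 kb) were longer. The other runs by number of sites were at chromosome 20, 46200175 to 46241795, with 13 sites, 46 SPT5 and 2 Pol II peaks over 41.6 kb, and at chromosome 11, 9687599 to 9719597, with 12 sites, 31 SPT5 and 1 Pol II peak over 32.0 kb. In these as well no SPT5 peak over a site reached Pol II and no O-GlcNAc peak lay inside.

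**Figure D5:**
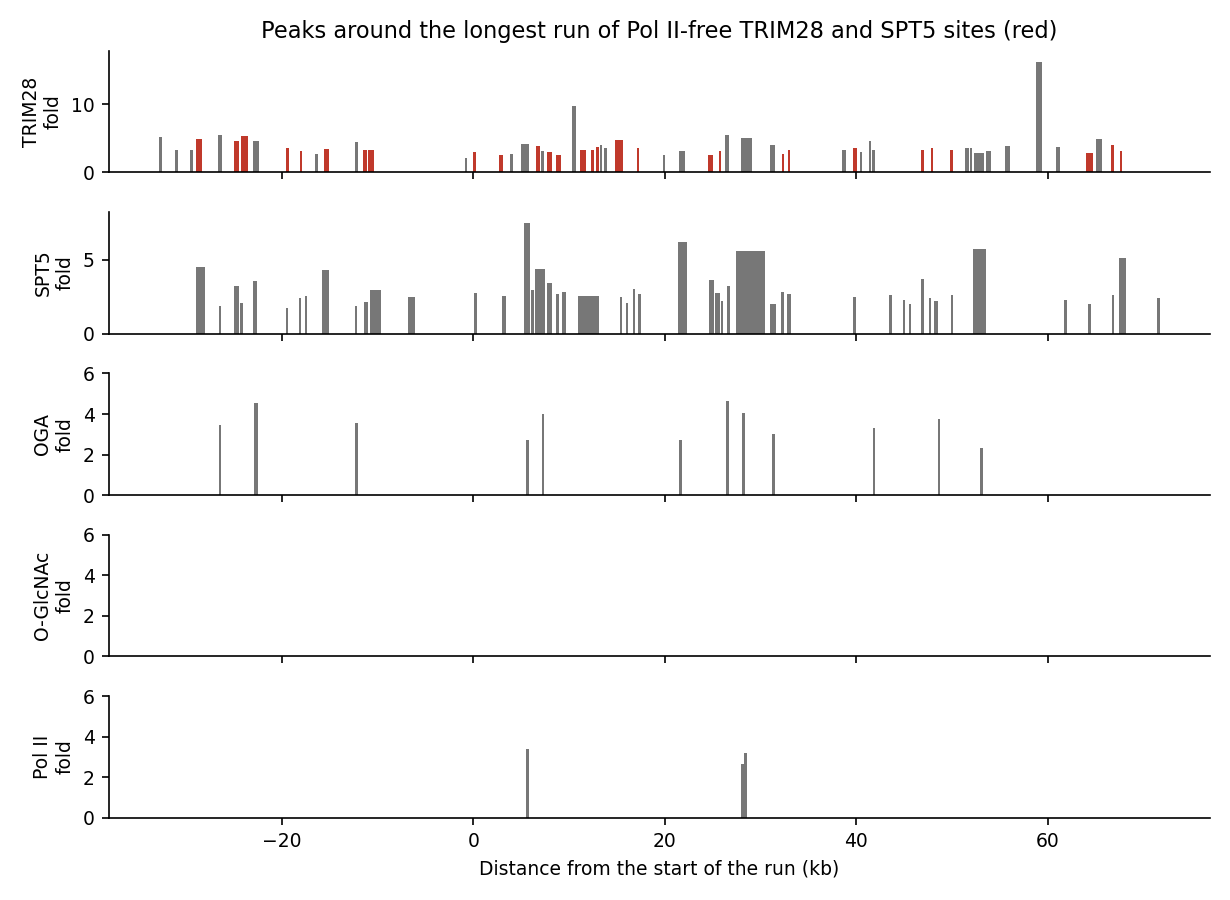
Peaks of the 5 lists around the longest run of Pol II-free shared sites, placed by distance from the start of the run (horizontal axis, kb), with the height of a bar showing the peak's fold enrichment in its own list (vertical axes); bars narrower than 0.25 kb are drawn at that width. Red bars are the 29 Pol II-free shared sites in view, which lie among many SPT5 peaks, 3 Pol II peaks and 0 O-GlcNAc peaks.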

How the data were processed

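The members, measures and comparisons were chosen with earlier results of these data known. ChIP-seq was done with 10 µg of antibody on cells fixed in 1% formaldehyde for 5 min, and 25 ng of the recovered DNA went into each library, per the labels' protocols. Reads were processed by the authors with bcl2fastq 2.17, Trimmomatic 0.30 and Bowtie2 2.1.0 on build hg19, per the submitters' processing notes; no source used here gives the peak caller, its control or its threshold. The deposited narrowPeak files hold, per peak, the authors' position and summit, a fold enrichment (a ratio to their background), a −log10 p and −log10 q, and a score; the score and the −log10 p were not used. There is 1 list per sample, with no sign of pooling in the labels. Fold enrichments were compared only within 1 list.

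Overlap means at least 1 shared base. Distances to Pol II are bases between peak edges. The SPT5 peak of a site is the one that shares most bases, while summit distances run to the nearest SPT5 summit, which may belong to another peak; sides and offsets use the peak that shares most bases. A SPT5 peak reached Pol II when any SPT5 peak over the site overlapped a Pol II peak. Named sites are the 5 highest by TRIM28, the 3 highest by SPT5, the 3 widest, the 3 farthest from and nearest to Pol II, the 3 runs with the most sites and the shortest overlaps, with ties by position. No genome or annotation of hg19 was used, so the planned description of genes was not run, and genes and sequences at the sites were not analysed here. The code was tested on simulated data, and bedtools 2.31.1 gave the same 6008 sites. Python 3.11.15, numpy 2.4.6, scipy 1.17.1, pandas 2.3.3 and matplotlib 3.10.9 were used. The alternatives were stricter q values, other overlaps, other definitions of absence, chromosome X, summit distances and a longer joining distance.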

Additional observations from a re-analysis of the deposited data

Results flagged for a closer look

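Chromosome X stood outside the comparisons and held 88 further TRIM28 peaks with SPT5 and without Pol II, OGA and O-GlcNAc. They made up 8.76% of the 1005 TRIM28 peaks there (Wilson interval 7.16% to 10.7%), had a median TRIM28 fold enrichment of 3.43 and a median width of 298.5 bp, and lay a median of 5322 bp from Pol II.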

How the results depend on the processing

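No paired analysis was possible because each target had 1 library. Of 67 alternative values, 30 stayed within the interval of the value reported, or within 1.5 times of it for the number of sites, and 37 moved; the causes were not tested beyond what each setting does by construction. Lists all held to a −log10 q of 5 or more left 3260 sites, a median distance to Pol II of 10017 bp with 36.7% within 5 kb, a median width of 343 bp, median fold enrichments of 3.47 for TRIM28 and 3.40 for SPT5, and a neighbour within 10 kb for 27.8%. The same threshold for TRIM28 and SPT5 only, chosen after seeing the data, gave 2825 sites, a width of 336 bp, fold enrichments of 3.47 and 3.37 and a neighbour for 25.2%. Summits within 200 bp gave 11837 bp and 32.3% for Pol II, fold enrichments of 3.13 and 2.96, a summit distance of 63 bp and a neighbour for 28.7%. No peak of Pol II, OGA or O-GlcNAc within 1 kb gave 13774 bp and 25.4%, fold enrichments of 3.16 and 3.01, a summit distance of 76 bp and a neighbour for 33.7%. No SPT5 peak reaching Pol II gave 11280 bp and 32.3%, fold enrichments of 3.13 and 2.99, a summit distance of 76 bp and a neighbour for 35.5%. An overlap of 50% of the shorter peak gave a summit distance of 80 bp and a neighbour for 36.7%. With OGA and O-GlcNAc allowed, the width was 311 bp, the TRIM28 fold enrichment 3.13 and the share with a neighbour 40.1%. Between summits, 38.1% lay within 5 kb of Pol II, and 50.2% had a neighbour within 20 kb. Chromosome X moved none of the 8 values. Depth limits all counts, since absence of a peak in a list of unknown depth is not absence of the factor.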
